A study of Mus musculus with 4 samples.

Results

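The collagen genes are the mouse genes whose symbol is Col, a number, the letter a and a number, one gene for each chain of the collagen proteins. Of 32285 genes in the matrices, 44 have such a symbol, and 31 of these held at least 20 UMIs (unique molecular identifiers, each standing for 1 captured mRNA molecule) over the barcodes with at least 500 UMIs, at least 250 detected genes and at most 20% mitochondrial UMIs. These 31 genes are described here. Col9a3 was just inside the limit with 27 UMIs and Col10a1 just outside it with 18.

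Collagens are proteins of the extracellular matrix in which chains wind around each other into a triple helix. Fibrillar collagens such as types I and III assemble into the fibres that give tissue its tensile strength and are abundant in the dense stroma of pancreatic cancer, where cancer-associated fibroblasts are known as their main source. Basement membrane collagens such as type IV form sheets under epithelia and around vessels, and the remaining types decorate fibrils, form fine filaments or anchor cells to the matrix.

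The 4 libraries came from orthotopic pancreatic ductal adenocarcinomas grown in the C57BL/6J strain from the cell lines KPC-3403 and KPC-4545 and taken on day 13 after implantation, with no treatment. KPC names a genetic mouse model of pancreatic cancer. From each line there was 1 enriched library, for which cells bearing CD31, TER119, CD45 or EPCAM were removed by sorting so as to concentrate fibroblasts, and 1 whole library, made from the unsorted tumour suspension. Separate animals are not stated for the libraries, so a p-value across them measures only the spread between these samples, and line and library cannot be told apart within a preparation.

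Cells passing the filters numbered 2478 in enriched KPC-3403, 1655 in enriched KPC-4545, 1104 in whole KPC-3403 and 527 in whole KPC-4545, with median depths of 16268, 8185, 4084.5 and 3589 UMIs in that order. Cells were clustered without any collagen gene, and clusters were named from marker genes that are not collagens. Fibroblast-like cells (clusters 5, 9 and 22) numbered 543, 45, 40 and 2 in the same order of libraries, tumour-like cells 650, 823, 85 and 28, and mesothelial-like cells 176, 5, 6 and 2. Tumour-like cells of KPC-3403 lay mostly in clusters 2 and 8, and those of KPC-4545 mostly in clusters 1 and 15. The 15 fibroblast markers summed to 147, 171 and 95.7 per 10000 UMIs in the fibroblast-like cells of enriched KPC-3403, enriched KPC-4545 and whole KPC-3403, and to 1.62, 0.929 and 0.0781 in the tumour-like cells of those libraries. Ptprc, which encodes CD45, had 0 UMIs in fibroblast-like cells of enriched KPC-3403, enriched KPC-4545 and whole KPC-3403. Tumour-like cells were present after the negative sort, with Krt8 at 16.6 and 6.42 per 10000 UMIs in them and Epcam at 0.251 and 0.00146 in enriched KPC-3403 and enriched KPC-4545, against 2.08 and 0.986 in whole KPC-3403 and whole KPC-4545.

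Enriched KPC-4545 and whole KPC-3403 shared 135 cell barcodes, where the other pairs of libraries shared 6 to 8. In whole KPC-3403 the shared barcodes included 13 of the 40 fibroblast-like and 41 of the 85 tumour-like cells, and in enriched KPC-4545 they included 2 of the 45 fibroblast-like and 14 of the 823 tumour-like cells. The shared barcodes of clusters 2, 8, 5 and 9 in whole KPC-3403 had median depths of 26745, 39634, 25364 and 27018.5 UMIs. All cells of these clusters there had medians of 9004.5, 26198, 16581 and 10731. In enriched KPC-4545 the shared barcodes of clusters 2, 8 and 9 had 707, 1346 and 717.5. Values of these clusters in whole KPC-3403 without the shared barcodes thus rest on shallower cells. Values are given with the shared barcodes, and also without them where leaving them out ends a call, turns a direction or moves a value described by more than 1.5 times. Whole KPC-4545 had too few fibroblast-like cells to be used for that class.

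Fibrillar genes held most of the collagen mRNA. The 10 fibrillar members had 482276 UMIs, 83.1% of the 580560 collagen UMIs, and the 5 type VI members, which form beaded filaments, had 8.65%. The 4 basement membrane network members (type IV) had 2.65%, and the 2 multiplexins of the basement membrane zone (types XV and XVIII) had 2.37%. The 5 fibril-associated members (types IX, XII, XIV, XVI and XX) had 1.98% and the 2 short-chain network members (type VIII) 1.18%. The single members of the anchoring, transmembrane and other kinds (Col7a1, Col23a1 and Col28a1) had 526, 59 and 61 UMIs. Levels below are UMIs per 10000 UMIs of the cells named. Each UMI marks 1 molecule captured at its 5′ end and levels are not divided by gene length, so levels are compared between cell groups. Ratios of the UMIs of 2 genes, and of sums over groups of genes, are likewise read only by how they differ between cell groups, not as ratios of molecules.

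Fibroblast-like cells carried the fibrillar collagens. The 10 fibrillar members summed to 305, 319 and 300 per 10000 UMIs in fibroblast-like cells of enriched KPC-3403, enriched KPC-4545 and whole KPC-3403, a mean of 308 ± 9.92 (SD, n = 3 libraries). Tumour-like cells had 2.64, 1.74, 0.458 and 2.01 in enriched KPC-3403, enriched KPC-4545, whole KPC-3403 and whole KPC-4545, a mean of 1.71 ± 0.916 (SD, n = 4 libraries). The ranges do not overlap. Without the shared barcodes the fibroblast-like cells of whole KPC-3403 had 248. In the tumour-like cells of enriched KPC-3403, 1 cell held 673 of the 3189 fibrillar UMIs, and the level without it was 2.09. Immune-like cells, which are not known as a source of fibrillar collagen, had 0.675 in whole KPC-3403, or 0.145 without 1 cell, and 0.0896 in whole KPC-4545. The tumour-like level in whole KPC-3403, 0.458 (0.672 without the shared barcodes), thus lay below the immune-like level with that 1 cell and above it without.

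The basement membrane genes (types IV, XV and XVIII, 6 members) were spread over more classes. They summed to 8.12, 20.8 and 13.8 per 10000 UMIs in fibroblast-like cells of enriched KPC-3403, enriched KPC-4545 and whole KPC-3403 (mean 14.2 ± 6.34, SD, n = 3), and to 3.26, 1.91, 3.97 and 2.60 in tumour-like cells of the 4 libraries in the order above (mean 2.93 ± 0.881, SD, n = 4). The tumour-like cells of whole KPC-3403 had 2.40 without the shared barcodes. Most of the tumour-like level came from Col18a1 alone, except in whole KPC-4545. The fibroblast-like cells of enriched KPC-3403, at 8.12, were nearest to the tumour-like range. The other 15 members had 33.7, 38.8 and 28.0 in fibroblast-like cells (mean 33.5 ± 5.43, SD, n = 3), against 2.54, 4.16, 1.35 and 1.58 in tumour-like cells (mean 2.41 ± 1.28, SD, n = 4).

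**Figure D1:**
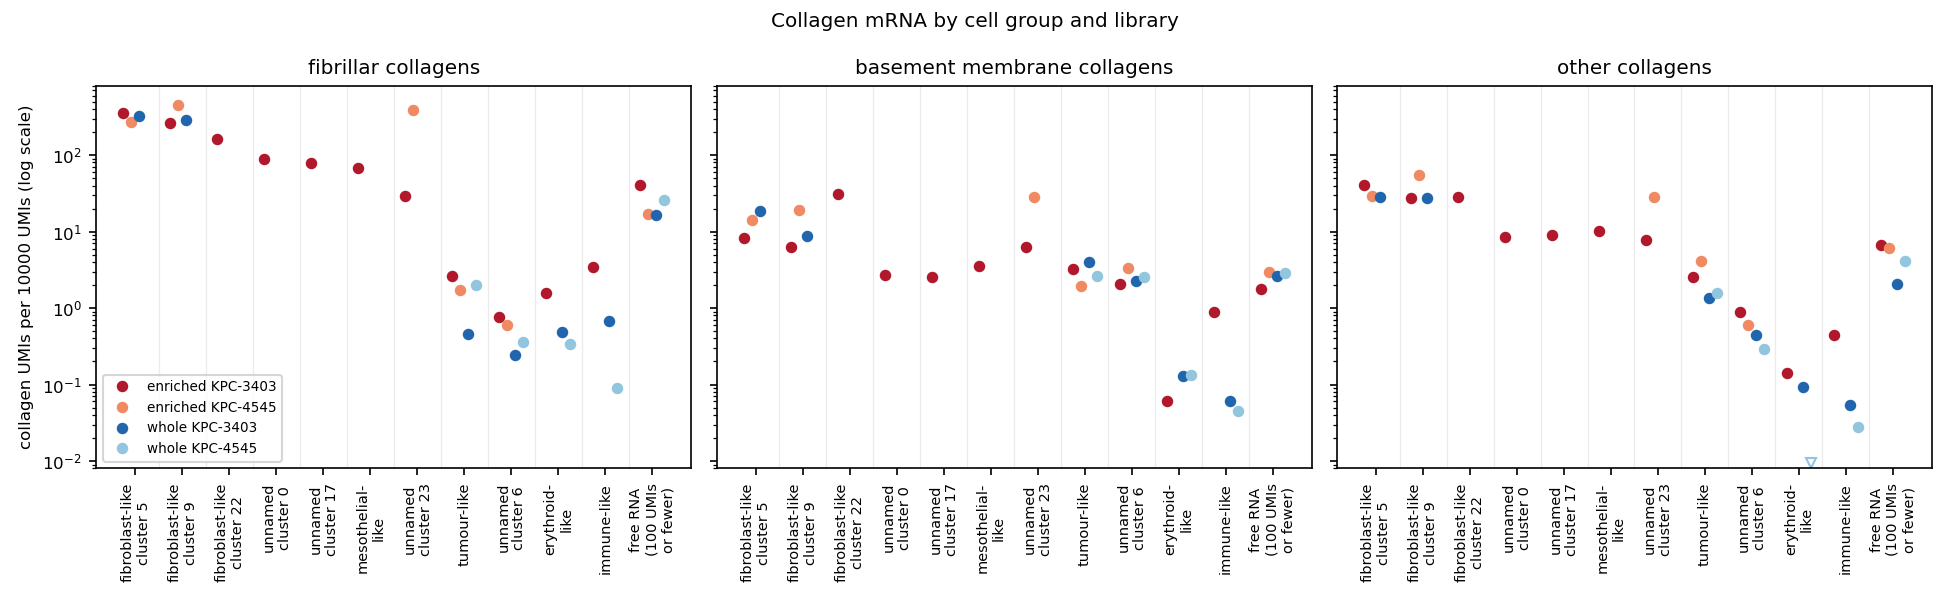
UMIs per 10000 UMIs (log axis) of fibrillar, basement membrane and other collagens in each cell group (x axis) with 1 point per library; barcodes with at most 100 UMIs stand for free RNA, and an open triangle marks 0 UMIs. For fibrillar collagens the fibroblast-like clusters and the 17 cells of cluster 23 in enriched KPC-4545, 8 of them with shared barcodes, are highest, while for basement membrane collagens tumour-like cells, at 1.91 to 3.97, lie closer to the fibroblast-like clusters. Except in whole KPC-4545, most of that tumour-like level is Col18a1.

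Between these extremes were 3 stromal groups of enriched KPC-3403. The mesothelial-like cells, named from genes of the serosal lining such as Upk3b, had 68.3 per 10000 UMIs of fibrillar, 3.59 of basement membrane and 10.2 of other collagens. Cluster 0, an unnamed group of 849 cells led by Cxcl13, Calca and Saa3 that held both fibroblast and mesothelial markers, had 88.1, 2.69 and 8.48 of the 3 kinds, and the unnamed cluster 17 of 98 cells had 79.0, 2.54 and 9.09. In cluster 0, Dcn, a proteoglycan that binds collagen fibrils, was at 59.6 per 10000 UMIs, above the 49.4 of fibroblast-like cells in that library, whose fibrillar level of 305 was the higher one. Free RNA, read from barcodes with at most 100 UMIs, had 49.3, 25.9, 21.0 and 33.1 collagen UMIs per 10000 in enriched KPC-3403, enriched KPC-4545, whole KPC-3403 and whole KPC-4545; erythroid-like cells had 1.77, 0.70 and 0.468 in the 3 libraries with at least 15 such cells (enriched KPC-3403, whole KPC-3403 and whole KPC-4545).

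The share of collagen UMIs from each class depended on which cells a library held. Fibroblast-like cells made up 21.9% of the cells and held 56.9% of the collagen UMIs in enriched KPC-3403, and they made up 3.62% of the cells and held 74.3% in whole KPC-3403. In enriched KPC-4545 they were 2.72% of the cells and held 37.9%, while tumour-like cells held 45.6%. Cluster 0 held 29.4%, mesothelial-like cells 6.71% and tumour-like cells 2.10% in enriched KPC-3403. For basement membrane collagens the tumour-like share was 23.8%, 65.4%, 25.5% and 19.6% in enriched KPC-3403, enriched KPC-4545, whole KPC-3403 and whole KPC-4545, against 0.757%, 20.6%, 0.386% and 2.51% for fibrillar collagens. When the shared barcodes were left out, the tumour-like shares in whole KPC-3403 were 8.77% and 0.37%. The tumour-like share was larger for basement membrane than for fibrillar collagens in each of the 4 libraries. Col18a1 alone made up most of the tumour-like basement membrane UMIs in each library except whole KPC-4545, so this share is not a trait of the whole group.

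To test the class difference gene by gene, UMIs were summed per library and class in the 3 libraries with at least 20 cells of both, and fitted with edgeR's quasi-likelihood test with the library as a term. Of 28 members tested, 20 were higher and 1 was lower in fibroblast-like than in tumour-like cells at a Benjamini-Hochberg adjusted p of 0.05 over all genes. Members with few tumour-like UMIs, such as Col6a5, Col6a6, Col23a1 and Col28a1, entered the test through their fibroblast-like counts and could hardly be called lower. Over all 11758 genes tested, 24.2% passed, 14.9% higher and 9.29% lower. The members' median log2 change was 5.48, against 0.0058 over all genes. No collagen gene shaped the classes, but genes that vary with collagens did, so these p-values describe the size of the difference relative to the libraries' spread rather than an independent sort. Without the shared barcodes 17 members were higher and 1 lower; Col15a1 and Col27a1 no longer passed and Col23a1 had too few counts to be tested. Without enriched KPC-3403, 11 of 21 members tested passed, all higher. Over all genes the calls ranged from 1211 to 5498 over the alternative runs, against 2849 in the main run.

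**Figure D2:**
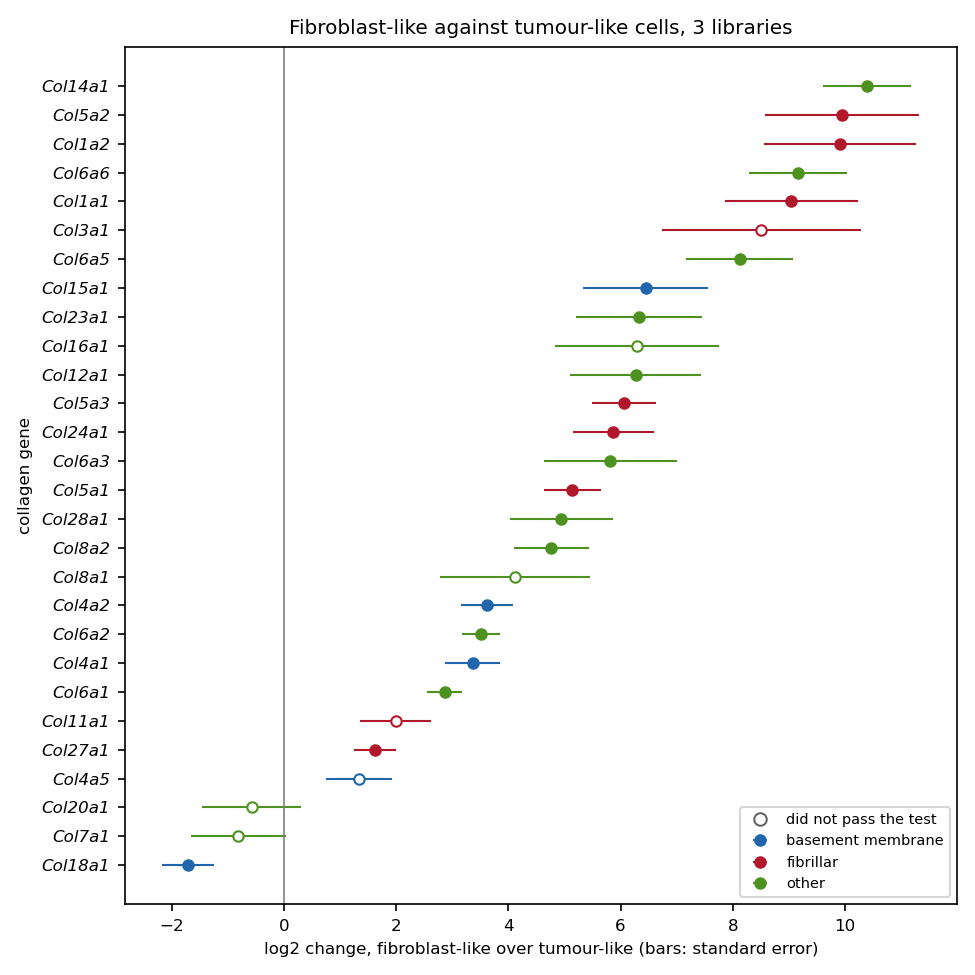
Log2 change (x axis) of 28 collagen genes between fibroblast-like and tumour-like cells with its standard error, from edgeR on sums of 3 libraries; filled points passed an adjusted p of 0.05. The genes run from Col14a1 at 10.39 to Col18a1 at -1.71.

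Col1a1 and Col1a2 encode the chains of type I collagen, the main collagen of fibrous stroma. Col1a1 (ENSMUSG00000001506, GRCm38 chr11:94936224-94953042, plus strand) had 106, 109 and 99.6 UMIs per 10000 in fibroblast-like cells of enriched KPC-3403, enriched KPC-4545 and whole KPC-3403, and 0.669, 0.252 and 0.0312 in tumour-like cells of these libraries. Col1a2 (ENSMUSG00000029661, chr6:4504814-4541544, plus strand) had 69.4, 59.1 and 76.3 in fibroblast-like cells and 0.276, 0.0628 and 0.00521 in tumour-like cells. For both genes every fibroblast-like value lay above every tumour-like value. The log2 change was 9.04 (SE 1.19, adjusted p = 0.0169, edgeR) for Col1a1 and 9.91 (SE 1.35, adjusted p = 0.0183, edgeR) for Col1a2. Without enriched KPC-4545 the adjusted p-values were 0.268 for Col1a1 and 0.266 for Col1a2, and without enriched KPC-3403 that of Col1a2 was 0.0634 (edgeR), with log2 changes from 8.95 to 11.05.

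Col3a1 encodes type III collagen, which forms fine fibrils with type I. It had 106, 129 and 99.2 UMIs per 10000 in fibroblast-like cells of enriched KPC-3403, enriched KPC-4545 and whole KPC-3403, and 0.909, 0.709 and 0.00521 in tumour-like cells. The groups did not overlap, but the tumour-like values spread widely and the log2 change of 8.51 (SE 1.78) missed the threshold (adjusted p = 0.052, edgeR). It passed by DESeq2 and by edgeR with RLE size factors. Col3a1 (ENSMUSG00000026043, chr1:45311538-45349706, plus strand) lies 24614 bases from Col5a2 (ENSMUSG00000026042, chr1:45374321-45503282, minus strand), with the ends of the 2 genes facing each other.

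The window before the start of Col3a1 is shown because it was one of 2 among the members with a TATAAA box on either strand. RefSeq promoter sequences (GRCm38.p6) matched 26 of the 31 members in 28 windows of 250 bases before the annotated start; TATAAA was in 2 of the members, against 12.4% of 32851 windows over all genes. The strand of the gene is given 5′ to 3′ at chr1:45311288-45311537, and capitals mark the TATAAA letters.
Col3a1: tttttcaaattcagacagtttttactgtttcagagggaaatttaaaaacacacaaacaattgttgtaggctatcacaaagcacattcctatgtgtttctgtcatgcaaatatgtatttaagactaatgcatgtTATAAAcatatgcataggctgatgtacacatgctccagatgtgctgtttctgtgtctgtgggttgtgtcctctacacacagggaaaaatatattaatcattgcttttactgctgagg
A match is a run of letters and not a measured binding site.

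Type V collagen joins type I fibrils and limits their width, and its chains were not distributed alike. Col5a2 had 9.64, 8.91 and 11.3 UMIs per 10000 in fibroblast-like cells of enriched KPC-3403, enriched KPC-4545 and whole KPC-3403, against 0.0504, 0.00255 and 0 in tumour-like cells. Col5a1 had 9.25, 9.93 and 10.7 in fibroblast-like cells, against 0.351, 0.533 and 0.130 in tumour-like cells (the last from 25 UMIs, and 0.0776 without the shared barcodes). Both were far higher in fibroblast-like cells, with log2 changes of 9.95 (SE 1.37, adjusted p = 0.0158, edgeR) for Col5a2 and 5.14 (SE 0.51, adjusted p = 0.000703, edgeR) for Col5a1. Col5a3, another type V chain, had 3.95, 2.83 and 2.23 in fibroblast-like cells and 0.107, 0.0514 and 0.00521 in tumour-like cells, and it passed with a log2 change of 6.06 (SE 0.56).

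The ratio of Col5a1 to Col5a2 UMIs was 0.960, 1.11 and 0.944 in fibroblast-like cells of enriched KPC-3403, enriched KPC-4545 and whole KPC-3403. In tumour-like cells it was 6.97 (95% interval 5.32 to 9.27, counting error only) in enriched KPC-3403 and 209 (101 to 520) in enriched KPC-4545, where 1461 Col5a1 and 7 Col5a2 UMIs were counted. Over the class as a whole, the surplus of Col5a1 was much larger in enriched KPC-4545 than in enriched KPC-3403, where 425 Col5a1 and 61 Col5a2 UMIs were counted. Of these, 202 and 3 came from the 44 cells of cluster 1, a ratio of 67.3. The 404 cells of cluster 2 had 175 and 50, a ratio of 3.50. Cluster 1 held 497 of its 558 cells in enriched KPC-4545. Free RNA of those 2 libraries had ratios of 0.682 and 1.80, unlike those of the tumour-like cells.

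The remaining fibrillar chains differed from each other in how far they followed class. Col27a1 had 0.640, 0.340 and 0.437 UMIs per 10000 in fibroblast-like cells of enriched KPC-3403, enriched KPC-4545 and whole KPC-3403, against 0.230, 0.0613 and 0.281 in tumour-like cells, and was higher by a log2 change of 1.62 (adjusted p = 0.0167, edgeR; 0.0972 without the shared barcodes and 0.121 without enriched KPC-3403). In whole KPC-3403 without the shared barcodes its level was 0.343 in fibroblast-like and 0.439 in tumour-like cells, the opposite direction. Col24a1 had 0.226, 0.0638 and 0.210 in fibroblast-like cells, against 0.00248, 0.00292 and 0 in tumour-like cells, and passed (log2 change 5.87). Its level in cluster 0, at 0.415, and in cluster 17, at 0.409, was above that of fibroblast-like cells in the same library. Col11a1, a chain that seeds fibrils and is known from activated fibroblasts of human tumours, had 0.0514, 0.340 and 0.0324 in fibroblast-like cells and 0.0256, 0.0660 and 0 in tumour-like cells; its change of 1.99 did not pass (adjusted p = 0.0528, edgeR). In enriched KPC-4545 Col11a1 stood at 1.02 in cluster 9. Col11a2 was not tested for want of counts.

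Within the fibroblast-like class, clusters differed in the balance of fibrillar chains. Cluster 9, led by the contractile genes Tagln and Acta2, had a ratio of Col3a1 to Col1a1 UMIs of 0.681, 0.647 and 0.786 in enriched KPC-3403, enriched KPC-4545 and whole KPC-3403. In cluster 5, led by Sfrp4, Postn, Pi16 and Dpt, the ratio was 1.26, 1.87 and 1.24, and in cluster 22, led by Ccl11, Mmp3 and Ccl19, it was 2.0 in enriched KPC-3403. The ratio was below 1 in cluster 9 and above 1 in cluster 5 in each of the 3 libraries, with 16 to 20 cells per cluster outside enriched KPC-3403 (11 to 20 without the shared barcodes, with the same directions). Col3a1 itself was at 141, 137 and 121 per 10000 UMIs in cluster 5 and at 71.8, 129 and 81.9 in cluster 9. Col1a1 was at 112, 73.3 and 97.6 in cluster 5 and at 105, 199 and 104 in cluster 9. Col1a1 in cluster 5 of whole KPC-3403 was at 64.2 without the shared barcodes. These clusters were formed from genes that vary with collagens, so the values are a description without a test.

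Type I chain balance also varied outside the fibroblasts. The ratio of Col1a1 to Col1a2 UMIs was 1.53, 1.84 and 1.31 in fibroblast-like cells of enriched KPC-3403, enriched KPC-4545 and whole KPC-3403, and 2.43 and 4.02 in tumour-like cells of enriched KPC-3403 and enriched KPC-4545. It was 0.642 in mesothelial-like cells, 0.838 in cluster 0 and 0.762 in cluster 17 of enriched KPC-3403. In that library the ratio was above 1 in fibroblast-like and tumour-like cells and below 1 in the 3 stromal groups. Free RNA of enriched KPC-3403 had 1.10.

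**Figure D3:**
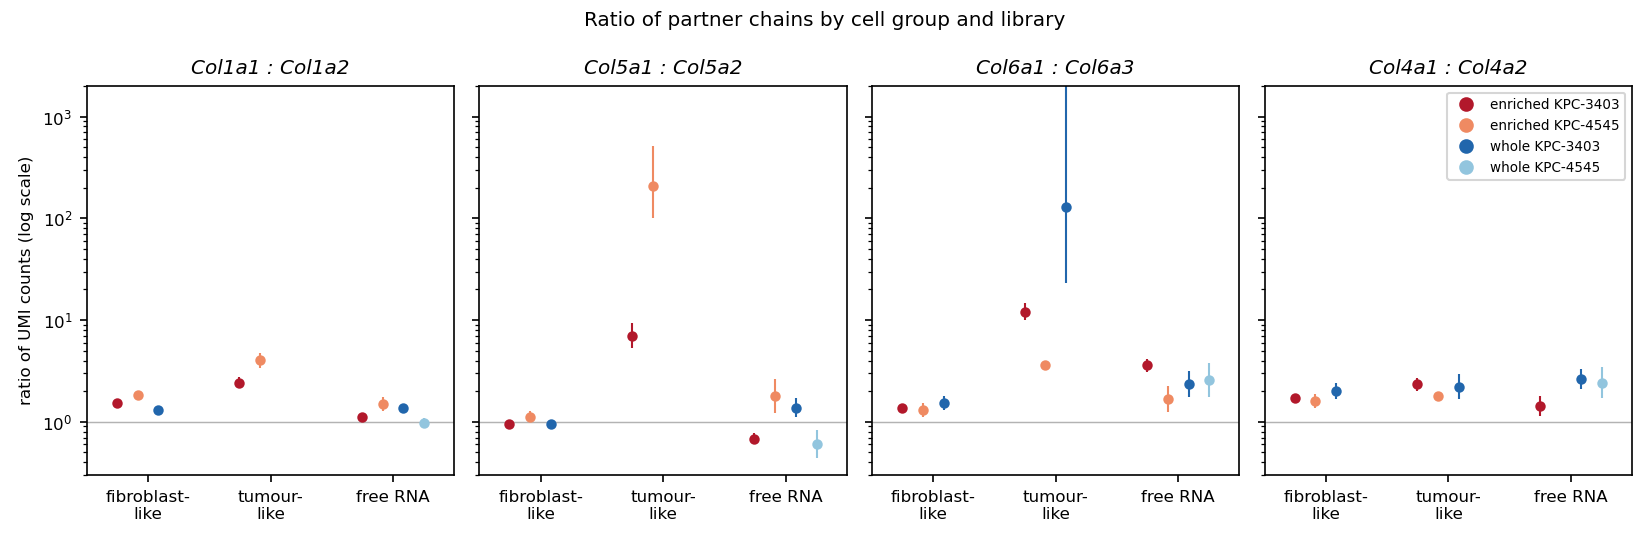
Ratio of UMIs (log axis) for 4 pairs of chains in fibroblast-like cells, tumour-like cells and free RNA, 1 point per library, with 95% intervals for counting error, of which that of Col6a1 over Col6a3 in tumour-like cells of whole KPC-3403 runs past the axis. Fibroblast-like cells lie near the same value in every library, while tumour-like cells reach 209 for Col5a1 over Col5a2.

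Col4a1 and Col4a2 encode the chains that form most type IV collagen, the network of basement membranes. Col4a1 had 2.81, 8.76 and 6.05 UMIs per 10000 in fibroblast-like cells of enriched KPC-3403, enriched KPC-4545 and whole KPC-3403, against 0.550, 0.334 and 0.885 in tumour-like cells. Col4a2 had 1.62, 5.47 and 3.04 in fibroblast-like cells, against 0.236, 0.188 and 0.401 in tumour-like cells. Neither pair of groups overlapped, and both genes were higher in fibroblast-like cells, by log2 changes of 3.36 (SE 0.49, adjusted p = 0.00366, edgeR) for Col4a1 and 3.61 (SE 0.46, adjusted p = 0.0017, edgeR) for Col4a2. Cluster 22 stood out within the class, with 15.1 for Col4a1 and 8.23 for Col4a2 in enriched KPC-3403.

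These 2 genes moved together. Col4a1 (ENSMUSG00000031502, GRCm38 chr8:11198423-11312826, minus strand) and Col4a2 (ENSMUSG00000031503, chr8:11312805-11449287, plus strand) lie head to head with annotated starts 21 bases apart, a shared start region known in mammals. The ratio of Col4a1 to Col4a2 UMIs was 1.73, 1.60 and 1.99 in fibroblast-like cells of enriched KPC-3403, enriched KPC-4545 and whole KPC-3403, and 2.33, 1.78 and 2.21 in tumour-like cells. The range of this ratio over the 2 classes was narrow beside that of Col5a1 to Col5a2. Col6a1 and Col6a2 lie on the same strand with starts 102538 bases apart. Their ratio was 0.935, 1.12 and 1.02 in fibroblast-like cells of these libraries, and 1.53, 1.62 and 1.69 in tumour-like cells. The part of gene position in these ratios was not tested.

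A stretch of 30 bases around the CCAAT match in the RefSeq window of each gene is shown for comparing the pair, together with 2 other members, Col1a2 and Col18a1, which were chosen after their values were seen. RefSeq and GENCODE starts differ: the Col1a2 stretch lies before the RefSeq start but after the start given above, and 127 bases of its window, 18 of that of Col18a1 and all 250 of those of Col4a1 and Col4a2 are annotated as exon in GENCODE. The letters CCAAT, read as ATTGG on the other strand, were in 9 of the 26 members with a window, against 33.8% of all windows; GGGCGG, read as CCGCCC on the other strand, was in 18 of the members, against 32.7%. Capitals mark CCAAT or ATTGG; each line reads 5′ to 3′ on the strand of its gene.
Col4a1 (chr8:11312954-11312983, minus strand): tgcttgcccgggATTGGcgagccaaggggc
Col4a2 (chr8:11312761-11312790, plus strand): ccgaggagctccCCAATttgttggcgctgc
Col1a2 (chr6:4505497-4505526, plus strand): aaaagaatggaaCCAATttaagaagccccg
Col18a1 (chr10:77166723-77166752, minus strand): cgcgttggagacATTGGagagaggacgaga
The 2 type IV genes carry the letters in opposite orientations on their own strands.

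The remaining basement membrane members split by class. Col18a1 encodes type XVIII collagen, a heparan sulfate proteoglycan of epithelial and vascular basement membranes whose end fragment is endostatin. It had 0.808, 0.617 and 0.275 UMIs per 10000 in fibroblast-like cells of enriched KPC-3403, enriched KPC-4545 and whole KPC-3403, against 2.20, 1.19 and 2.60 in tumour-like cells, and it was the only member that passed as lower in fibroblast-like cells in the fit of 3 libraries (log2 change -1.71, SE 0.46, adjusted p = 0.0371, edgeR). That call was lost without enriched KPC-3403 (adjusted p = 0.0902, edgeR) and without whole KPC-3403 (adjusted p = 0.0766, edgeR), with the value still lower in fibroblast-like cells. The tumour-like level in whole KPC-3403 was 1.42 without the shared barcodes, and the call was kept (adjusted p = 0.00765, edgeR). Col15a1, its relative of the outer face of basement membranes, had 2.59, 5.81 and 4.01 in fibroblast-like cells and 0.175, 0.0244 and 0.0208 in tumour-like cells, and was higher by 6.45 (SE 1.12, adjusted p = 0.0247, edgeR; 0.0739 without the shared barcodes). The 2 multiplexins thus lay on opposite sides of the class difference.

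Col4a5 and Col4a6, the type IV chains of the X chromosome, were highest outside the fibroblast-like clusters in enriched KPC-3403. Col4a5 had 0.241, 0.128 and 0.372 UMIs per 10000 in fibroblast-like cells of enriched KPC-3403, enriched KPC-4545 and whole KPC-3403, against 0.0950, 0.180 and 0.0573 in tumour-like cells, and the change of 1.34 did not pass (adjusted p = 0.159, edgeR). In whole KPC-3403 Col4a5 was highest in the fibroblast-like cluster 9, at 0.404. In enriched KPC-3403 it was at 0.576 in cluster 0 and 0.485 in mesothelial-like cells, where Col4a6 was at 0.144 and 0.118. In enriched KPC-4545 Col4a5 was highest in the unnamed cluster 4, at 1.17. Col4a5 and Col4a6 lie head to head, with starts 1309 bases apart. In enriched KPC-3403 the ratio of their UMIs was 5.05 in fibroblast-like cells, 4.11 in mesothelial-like cells and 4.01 in cluster 0. It was 115 in tumour-like cells, from 115 and 1 UMIs. All cells of enriched KPC-4545 together had 751 and 1 UMIs.

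A few cells with endothelial markers in cluster 23 carried basement membrane collagens and almost no fibrillar ones. In cluster 23, an unnamed mixture, cells with at least 3 of 10 endothelial markers numbered 6 in whole KPC-3403 and 3 in whole KPC-4545, and none in the enriched libraries, whose sort removed CD31-positive cells; this selection was made after values were seen. By markers alone, over all clusters, 14 and 8 cells qualified in whole KPC-3403 and whole KPC-4545. They held 787 and 291 fibrillar and 527 and 473 basement membrane UMIs. In enriched KPC-3403 and enriched KPC-4545, 42 and 5 cells qualified, with 7502 and 15 fibrillar and 330 and 50 basement membrane UMIs. The 42 cells also held 3877 UMIs of the fibroblast marker Dcn. Low fibrillar counts were thus not shared by all cells with these markers. The cluster 23 cells held 408 of the 2988 basement membrane collagen UMIs of whole KPC-3403 (13.7%) and 415 of the 952 of whole KPC-4545 (43.6%). Their basement membrane level was 66.1 and 218 per 10000 UMIs, with Col4a1 at 34.3 and 126. Fibrillar genes had 2 and 1 UMIs in them, and Col1a1, Col1a2 and Col3a1 had 0. Without the shared barcodes, 4 such cells of whole KPC-3403 had 139 per 10000 UMIs and 7.16% of the basement membrane UMIs. With so few cells, 1 of which held 219 of the 415 UMIs in whole KPC-4545, these are values of single cells rather than of a class.

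Type VI collagen forms beaded filaments near the cell surface, and its main chains were also counted in tumour-like cells. Col6a1 had 7.76, 7.80 and 6.28 UMIs per 10000 in fibroblast-like cells of enriched KPC-3403, enriched KPC-4545 and whole KPC-3403, against 1.16, 1.53 and 0.677 in tumour-like cells (log2 change 2.87, SE 0.31, adjusted p = 0.00052, edgeR). Col6a2 had 8.30, 6.95 and 6.15, against 0.760, 0.943 and 0.401 (log2 change 3.52, SE 0.34). Col6a3, the largest of the main chains, had 5.67, 5.93 and 4.12, against 0.0959, 0.423 and 0.00521 (log2 change 5.82, SE 1.18, adjusted p = 0.0407, edgeR; 0.345 without enriched KPC-3403). The tumour-like levels in whole KPC-3403 without the shared barcodes were 0.284 for Col6a1 (11 UMIs) and 0.207 for Col6a2 (8 UMIs). All 3 were higher in fibroblast-like cells. The ratio of Col6a1 to Col6a3 UMIs over each whole class was 1.37, 1.32 and 1.52 in fibroblast-like cells, against 12.1, 3.61 and 130 in tumour-like cells. The last came from 130 and 1 UMIs (11 and 0 without the shared barcodes). Free RNA of those libraries had ratios of 3.58, 1.67 and 2.36. The tumour-like clusters of enriched KPC-4545 did not share a high ratio. It was 8.18 in cluster 1, 1.65 in cluster 15, 1.01 in cluster 20 and 0.399 in cluster 18. Fibroblast-like clusters 5 and 9 of that library had 1.90 and 1.09.

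The minor type VI chains Col6a5 and Col6a6, neighbours on chromosome 9, had at most 1 UMI in the tumour-like cells of a library. Col6a5 had 0.131, 0.106 and 0.0485 UMIs per 10000 in fibroblast-like cells of enriched KPC-3403, enriched KPC-4545 and whole KPC-3403, and 1, 0 and 0 UMIs in tumour-like cells. Its highest level in enriched KPC-3403, 0.623, was in cluster 0. Col6a6 had 0.192, 0.276 and 0.0485 in fibroblast-like cells, with 1.34 in cluster 22 of enriched KPC-3403, and also 1, 0 and 0 UMIs in tumour-like cells. Both passed as higher (log2 changes 8.12 and 9.16), but with so few tumour-like UMIs the fitted sizes depend on edgeR's prior count.

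Fibril-associated collagens sit on the surface of fibrils. Col14a1 had 3.74, 4.68 and 2.23 UMIs per 10000 in fibroblast-like cells of enriched KPC-3403, enriched KPC-4545 and whole KPC-3403 (0.986 in the last without the shared barcodes), against 0.00661, 0.00073 and 0.00521 in tumour-like cells. It had the largest fitted change, 10.39 (SE 0.79, adjusted p = 0.0004, edgeR), from 8, 2 and 1 tumour-like UMIs; with finer clusters it was 7.59 (adjusted p = 0.0601, edgeR). Col12a1 had 3.15, 7.32 and 5.08, against 0.0661, 0.209 and 0 (log2 change 6.27, SE 1.17, adjusted p = 0.0332, edgeR; 0.302 without enriched KPC-3403). Col16a1 had 1.23, 1.17 and 1.26, against 0.0570, 0.000365 and 0.0312, and did not pass (log2 change 6.29, adjusted p = 0.0611, edgeR).

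Col14a1 and Col12a1 were opposite between the fibroblast-like clusters. Col14a1 was at 6.73, 7.38 and 3.99 per 10000 UMIs in cluster 5 of enriched KPC-3403, enriched KPC-4545 and whole KPC-3403, and at 0.672, 0.832 and 0.683 in cluster 9. Col12a1 was at 2.74, 0.437 and 2.80 in cluster 5 and at 3.81, 20.7 and 7.27 in cluster 9. In each of the 3 libraries Col14a1 was higher in cluster 5 and Col12a1 in cluster 9. Whole KPC-3403 without the shared barcodes had Col14a1 at 1.22 in cluster 5 and 0.752 in cluster 9, from 11 and 10 UMIs, and Col12a1 at 1.44 and 9.55.

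Col8a1, a short-chain network collagen of vessel walls, had 3.22, 3.89 and 2.33 UMIs per 10000 in fibroblast-like cells of enriched KPC-3403, enriched KPC-4545 and whole KPC-3403, against 0.216, 0.997 and 0.00521 in tumour-like cells, and did not pass (log2 change 4.11, adjusted p = 0.123, edgeR). The fibroblast-like level in whole KPC-3403 was 5.66 without the shared barcodes. In enriched KPC-3403 it was at 0.0104 in cluster 0 and 0.00252 in mesothelial-like cells, both of which held fibrillar collagen mRNA. Its partner Col8a2 passed as higher (log2 change 4.76), as did Col23a1 (6.32) and Col28a1 (4.94). Col23a1 and Col28a1 had only 59 and 61 UMIs over all libraries, 28 and 46 of them in fibroblast-like cells of enriched KPC-3403. They entered the test through their fibroblast-like counts, so a call as lower was hardly possible. Their fitted sizes depend on edgeR's prior count. Col7a1, which anchors epithelial basement membranes to stroma, had 0.0502, 0.128 and 0.0162 in fibroblast-like cells and 0.144, 0.0372 and 0.182 in tumour-like cells and did not pass (log2 change -0.81, adjusted p = 0.538, edgeR). Col20a1 did not pass (log2 change -0.57), and Col4a6, Col11a2 and Col9a3 had too few counts for this test.

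**Figure D4:**
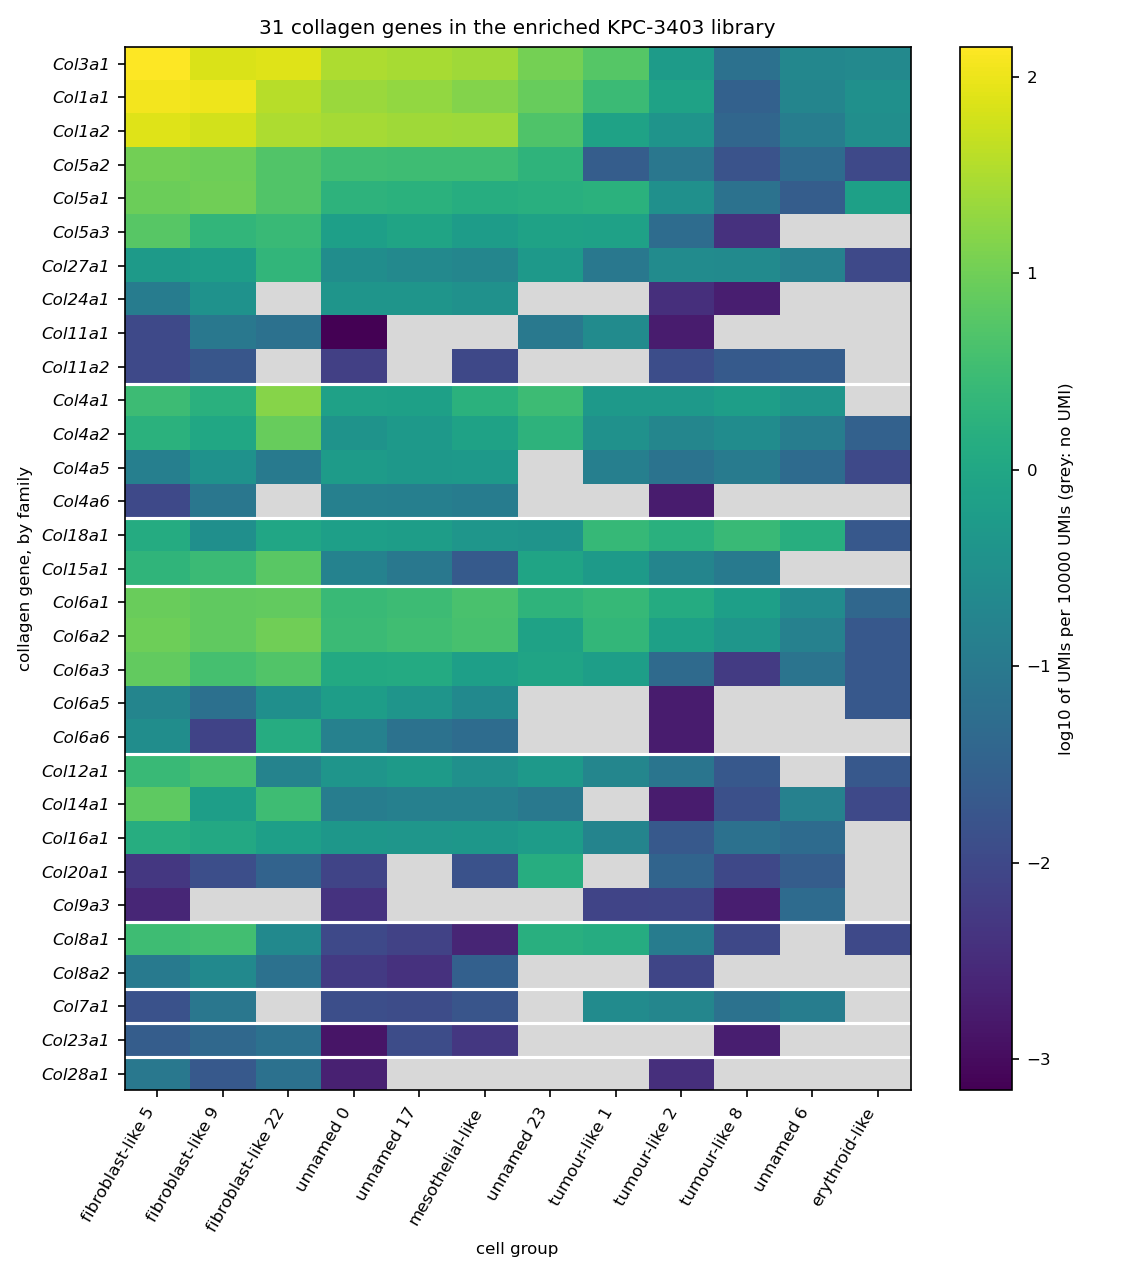
Level of each of the 31 collagen genes (down the page) in 12 cell groups (across) of enriched KPC-3403, as log10 of UMIs per 10000; grey marks no UMI. Most genes reach their highest level in a fibroblast-like cluster, with 10 of 30 highest in cluster 5, 7 in cluster 22, 4 in cluster 9 and 4 in cluster 0.

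Collagen chains are modified and cut by dedicated enzymes before they form fibrils, and many of those genes followed the same class difference. Of 32 listed genes of collagen modification, folding and processing, 29 were tested, and 21 were higher and 0 lower in fibroblast-like than in tumour-like cells, with a median log2 change of 2.58, where 14.9% of all genes were higher and 9.29% lower. Without enriched KPC-3403, 13 of 27 tested were higher and 0 lower. Over all genes the calls of this comparison ranged from 1211 to 5498 over its alternative runs. Mrc2, a receptor that takes up collagen for breakdown, was higher by 8.76 (adjusted p = 0.0107, edgeR) and Adamts2, which removes the front propeptide, by 7.56 (adjusted p = 0.000547, edgeR). Fkbp10, a collagen chaperone, was higher by 5.98, Bmp1, which removes the back propeptide, by 4.41, and Serpinh1, the collagen chaperone Hsp47, by 4.13 (adjusted p = 0.012, edgeR). P4hb, the general subunit of prolyl hydroxylase, had 0.27 (adjusted p = 0.46, edgeR) and P4ha1 1.08 (adjusted p = 0.0507, edgeR), neither passing. Of 10 listed collagen receptors 8 were tested. The integrin gene Itga11 was higher in fibroblast-like cells by 4.72 (adjusted p = 0.0179, edgeR), and Itga2 and Adgrg6, a type IV collagen receptor, were lower, with log2 changes of -4.88 (adjusted p = 0.00035, edgeR) and -3.84 (adjusted p = 0.00138, edgeR).

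Over all cells, the collagen level was higher in the enriched than in the whole library of KPC-3403 and lower in that of KPC-4545. Collagen genes summed to 114 per 10000 UMIs in enriched KPC-3403 and 31.1 in whole KPC-3403, and to 15.4 in enriched KPC-4545 and 22.2 in whole KPC-4545. Whole KPC-3403 had 18.8 without the shared barcodes, and in whole KPC-4545 2 cells held 40.8% of the collagen UMIs. With the lines together, 0 of 28 members tested passed between enriched and whole libraries by edgeR, while 0.179% of 15098 genes passed. By DESeq2 5 members passed, namely Col8a1, Col6a1, Col6a3, Col6a5 and Col11a1. The members' median log2 change was 1.37, against 0.08 over all genes. A sum over all cells does not separate the share of collagen-making cells from the level per cell.

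The member with the smallest p in that comparison was Col8a1, with 0.672 and 1.10 UMIs per 10000 in enriched KPC-3403 and enriched KPC-4545, against 0.180 and 0.176 in whole KPC-3403 and whole KPC-4545 (log2 change 2.29, SE 0.34, adjusted p = 0.0793, edgeR). Col6a1 followed, with 3.27 and 1.69, against 0.814 and 0.720 (log2 change 1.71, adjusted p = 0.18, edgeR). Whole KPC-3403 had 0.312 for Col8a1 and 0.494 for Col6a1 without the shared barcodes. For both genes the enriched values lay above the whole values in either line. Col11a1 (5.19), Col6a3 (2.08) and Col4a5 (1.52) were next by p and did not pass either. Leaving out either enriched library left the other alone in its group, so those runs are not read for single members. Over the alternative settings of this comparison the calls over all genes ranged from 0 to 2698, against 27 in the main run.

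**Figure D5:**
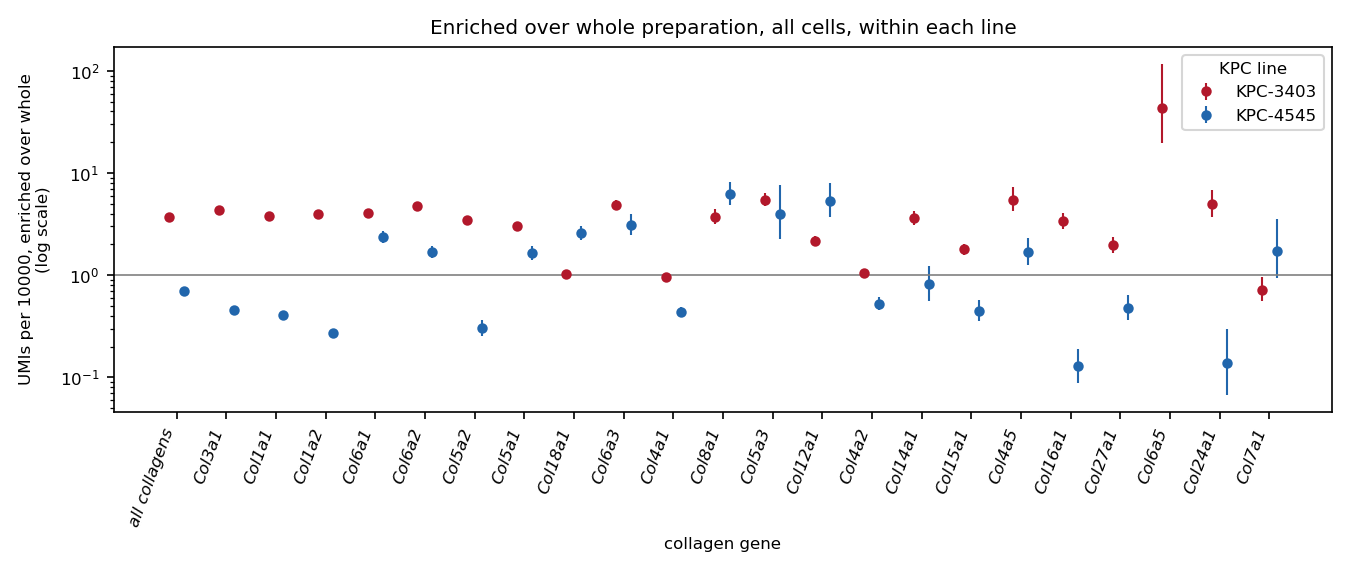
Enriched over whole ratio of UMIs per 10000 over all cells (log axis, 95% intervals for counting error) for all collagens together and 22 members with at least 500 UMIs, for KPC-3403 and KPC-4545; a gene with 0 UMIs in a whole library (Col6a5, KPC-4545) has no point. Type I and III genes lie above 1 in KPC-3403, Col3a1 at 4.34, and below 1 in KPC-4545, Col3a1 at 0.459.

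In fibroblast-like cells alone, total collagen was close between the preparations of KPC-3403. All members summed to 347 per 10000 UMIs in enriched and 342 in whole fibroblast-like cells, a ratio of 1.02 (95% interval 1.00 to 1.03, counting error only; 1 library against 1, so without a test). Without the shared barcodes the ratio was 1.16 (1.13 to 1.19). Of 23 members with enough UMIs, 10 had an interval above 1 and 7 below. The same count was not made over all genes, so these counts are not read as particular to collagens. Col18a1 was at a ratio of 2.94 and Col5a3 at 1.77 on the high side, Col4a1 at 0.465 and Col4a2 at 0.534 on the low side. Without the shared barcodes 7 were above and 7 below 1: Col8a1 turned to 0.569, against 1.38 with them, and Col14a1 stood at 3.79, against 1.67. Col5a3 then stood at 2.63. Fibroblast-like cells of enriched KPC-3403 against enriched KPC-4545, with 347 and 379, had a ratio of 0.916 (0.903 to 0.930). Col4a1 was at 0.321, Col4a2 at 0.297 and Col15a1 at 0.445, so these 3 basement membrane genes were lower in the enriched KPC-3403 library. Col18a1 and Col4a5 were not. Without the shared barcodes they stood at 1.31 (0.901 to 1.97) and 1.88 (0.849 to 5.19), both intervals holding 1. The mix of clusters within the class was not the same in the libraries, and its part in these ratios was not tested.

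In tumour-like cells 0 of 20 members tested passed between preparations by edgeR, and 0 by DESeq2. Of 11823 genes tested, 0% passed by edgeR. The absence of calls does not show that levels were equal. Col12a1 had the smallest p, with 0.0661 and 0.209 UMIs per 10000 in enriched KPC-3403 and enriched KPC-4545, against 0 in both whole libraries (adjusted p = 1, edgeR). Col5a3, Col6a2, Col6a1 and Col1a1 followed, each with a positive log2 change and an adjusted p of 1. Dcn, a fibroblast marker, was at 1.17 and 0.134 in these enriched tumour-like cells, against 0.0156 and 0.111 in the whole ones, and its part in the result was not tested.

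Between lines, KPC-3403 minus KPC-4545, 0 of 20 members passed in tumour-like cells by edgeR. Of 11823 genes 0.541% passed, 0.457% higher and 0.0846% lower in KPC-3403. By DESeq2 2 members passed, Col16a1 and Col18a1. Col18a1 had 2.20 and 2.60 UMIs per 10000 in enriched KPC-3403 and whole KPC-3403, against 1.19 and 0.972 in enriched KPC-4545 and whole KPC-4545 (log2 change 1.21, SE 0.24, adjusted p = 0.103, edgeR). Whole KPC-3403 had 1.42 from 55 UMIs without the shared barcodes (log2 change 0.85, adjusted p = 0.31, edgeR). Col16a1 had 0.0570 and 0.0312, against 0.000365 and 0 (log2 change 6.68, adjusted p = 0.0713, edgeR). For both genes the KPC-3403 values lay above the KPC-4545 values in either preparation. Col20a1 (5.10), Col4a5 (-1.31) and Col7a1 (1.57) were next by p. Different clusters made up the class in the 2 lines, as given above.

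Enriched KPC-4545 held a further group with collagen mRNA. Cluster 4, unnamed, had 342 cells in enriched KPC-4545, with Krt8 at 1.92 and Dcn at 0.0593 per 10000 UMIs. It held 28.3 collagen UMIs per 10000 (fibrillar 9.03, basement membrane 7.79, other 11.5), or 12.2% of the collagen UMIs of the library, and Col5a1 and Col5a2 stood at 565 and 4 UMIs. Its cells had a median of 13.95% mitochondrial UMIs, against 1.86% in tumour-like cells of that library, and the part of RNA quality in its levels was not tested. Col18a1 reached 4.38 in cluster 4 and 4.60 in the tumour-like cluster 18, whose median mitochondrial share was 14.5%.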

How the data were processed

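Droplet single-cell 5′ libraries were processed with Cell Ranger 6.1.1 against mm10, per the submitters' processing notes; the deposited matrices hold UMI counts for every barcode, not normalized. From these, barcodes counted as cells had 500 UMIs or more, 250 detected genes or more and a mitochondrial share of no more than 20%. Barcodes of at most 5000 UMIs that resembled free RNA at a false discovery rate of 0.01 (1000 draws) were left out, as were the top 0.8% of doublet scores per 1000 cells. Libraries held 5746733 to 51450719 UMIs over all barcodes, and 58.5% to 82.8% of these were in cells. Cells were clustered with scanpy 1.11.5 and leidenalg 0.10.2 at resolution 1 without collagen genes. A cluster took its best-scoring class where at least 3 markers were found and the log2 marker score was at least 1. Clusters of low depth without a leading marker, or led by markers of another class, stayed unnamed. A lead of 1.5 was asked only where a class of another compartment itself scored at least 1.5. This margin was set after clusters were seen. Tumour-like clusters 1, 15 and 18 scored 1.30, 1.42 and 1.07, against 0.598, 0.598 and 0.735 for mesothelial, their next class. Clusters 2 and 8 scored 2.37 and 3.28.

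UMI counts were summed per library and class and tested with edgeR 4.0.16 (R 4.3.3, limma 3.58.1): TMM, its filter on low counts, robust quasi-likelihood fit and Benjamini-Hochberg adjustment at 0.05 over all genes tested. DESeq2 1.42.0, other scaling, filters, clusterings and left-out libraries were alternatives. Counts were simulated with a single fixed spread between libraries, no difference between lines or in cell mix, and changes only in well-counted genes. On these counts the test recovered 95% of genes changed by a log2 of 2 between preparations, with 13 false calls among 14946 genes. Between classes it recovered 96%, with 2 false calls among 11737. The real libraries differ in line and cell mix, so these shares do not give the power of the tests here. Levels are UMIs per 10000 UMIs; 95% intervals (exact Poisson, Clopper-Pearson or conditional) cover counting error only. Replicate 1 is KPC-4545 and replicate 2 is KPC-3403, so the same line pairs the libraries of both preparations; deviations from the preparation means correlated at 0.256 over 15098 genes.

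Members with at least 500 UMIs were named with their values in each class; in each test the members that passed, or the 5 with the smallest p, were named. The members and lists were chosen with earlier results of these data known. Gene positions come from GENCODE M21 on GRCm38, and promoter windows from RefSeq on GRCm38.p6. Python 3.11.15, numpy 2.4.6, scipy 1.17.1 and pandas 2.3.3 were used. No gene length entered a level, and whether counting used strand is not given in the sources used here.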

Additional observations from a re-analysis of the deposited data

Results flagged for a closer look

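Collagen levels over all cells moved in opposite directions with the sort in the 2 lines. All collagens together were 3.68 times the whole-tumour level in enriched KPC-3403 and 0.694 times in enriched KPC-4545. The same split of directions was seen for 8 single genes, given as enriched over whole in KPC-3403 and then in KPC-4545. The ratio was 4.34 and 0.459 for Col3a1, 3.82 and 0.409 for Col1a1, 3.93 and 0.271 for Col1a2, and 3.43 and 0.306 for Col5a2. It was 1.80 and 0.450 for Col15a1, 3.37 and 0.129 for Col16a1, 1.97 and 0.479 for Col27a1, and 4.98 and 0.139 for Col24a1. With 1 library per line and preparation, the difference between lines was not tested. All 9 kept both directions without the shared barcodes, where all collagens together stood at 6.07 and 0.690. Fibroblast-like cells were 21.9% of the cells in enriched KPC-3403 and 3.62% in whole KPC-3403, but 2.72% in enriched KPC-4545 and 0.380% in whole KPC-4545, so their share of cells was higher after the sort in both lines. In whole KPC-4545 the 2 fibroblast-like cells held 40.8% of the collagen UMIs, and the part of such single cells in the ratios was not tested.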

How the results depend on the processing

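No member called between fibroblast-like and tumour-like cells changed direction in an alternative run that tested it. The other comparisons called no member in the main run, so no call could reverse there. Over all cells, directions differed between the lines for several members, as given above. Between preparations over all cells 0 members passed, against 5 by DESeq2, 1 (Col8a1) with no filter on low counts and 0 to 15 leaving out each library in turn; in tumour-like cells 0 passed, against 5 with no filter (Col1a1, Col1a2, Col5a3, Col8a1 and Col12a1, all higher) and 0 to 3 leaving out libraries. With the line as a replicate block both counts were 0, and the calls over all genes were 67 in place of 27 over all cells and 40 in place of 0 in tumour-like cells. Between lines in tumour-like cells 0 passed, against 2 by DESeq2, 7 with no filter, 2 (Col16a1 and Col18a1) with the preparation as a term and 0 to 5 leaving out libraries. Between fibroblast-like and tumour-like cells 21 passed, and 11 to 24 leaving out libraries. Where a class was left with 1 library, that library was assumed to vary like the others. Over all genes the calls ranged from 0 to 2698, 0 to 782, 0 to 2297 and 1211 to 5498 over the settings of these 4 comparisons, against 27, 0, 64 and 2849. RLE size factors moved the median of all genes by at most 0.0306 in size. The cause of these changes was not tested.

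The fibrillar level of fibroblast-like cells was 275 per 10000 UMIs at Leiden resolution 2 and 291 without the shared barcodes, an alternative added after the data were seen, against 308. The collagen ratio of these cells in enriched over whole KPC-3403 was 1.00 with collagens among the clustered genes and 1.16 without the shared barcodes, against 1.02, and that of enriched KPC-3403 over enriched KPC-4545 was 0.783 at resolution 2, against 0.916. Of the alternatives for single genes 342 kept their side of the threshold, 27 crossed to passing and 22 crossed out. Depth limits the tumour-like levels of low genes, where 0 to 8 UMIs set the fold.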

Other observations

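Erythroid-like cells of enriched KPC-3403 carried 1 type V chain without the other. Col5a1 was at 0.734 UMIs per 10000 in these 46 cells (72 UMIs, spread over 25 cells), while Col5a2 was at 0.0102. In whole KPC-3403 erythroid-like cells had 0.221 for Col5a1 (12 UMIs) and 0.0368 for Col5a2. Free RNA of enriched KPC-3403 had a Col5a1 to Col5a2 ratio of 0.682.

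Cluster 23 mixed different cells by library. In enriched KPC-3403 its 21 cells had 0 UMIs of Pecam1 and Cdh5 and carried 13 of 15 fibroblast markers (28.4 per 10000 UMIs), 8 of 9 pericyte markers (9.51) and 5 of 6 Schwann markers (4.46), and Col20a1 was at 1.39 UMIs per 10000 there. In enriched KPC-4545 its 17 cells, 8 of them with barcodes shared with whole KPC-3403, carried 15 of 15 fibroblast markers and 443 collagen UMIs per 10000, or 358 without the highest cell. Cluster 6, led by Reg3g, Reg1 and Ctrb1, had basement membrane collagens at 2.07, 3.34, 2.24 and 2.52 per 10000 UMIs in enriched KPC-3403, enriched KPC-4545, whole KPC-3403 and whole KPC-4545, within the range of tumour-like cells. All 71 of its cells in enriched KPC-4545, with 22 such UMIs, and 45 of 170 in whole KPC-3403 carried shared barcodes, and whole KPC-3403 had 2.29 without them. In whole KPC-3403, 1 T-like cell held 163 of the 220 collagen UMIs of all immune-like cells, and the immune-like level without it was 0.206, against 0.790 with it.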
